A study of Mus musculus with 6 samples.

Results

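The genes described here are the predicted and RIKEN genes of the RNASeq of rapamycin-treated dendritic cells, 40 of the 139 genes in the deposited table (28.8%). They were chosen by symbol alone. A gene was taken if its symbol was Gm followed by digits (28 genes), the form given to predicted genes, or ended in Rik (12 genes), the form given to cDNA clones of the RIKEN collection. The remaining 99 genes of the table are used for comparison. Bone marrow-derived dendritic cells (BMDCs) of C57BL/6 mice were grown for 8 days with GMCSF at 6 ng/mL in all groups. Veh-DC (n = 3) received vehicle and Rapa-M-DC (n = 3) received the mTOR inhibitor rapamycin in 3 treatments of 10 ng/mL. The sample titles and the supplement's account of the DESeq2 comparison give Veh/Veh and Rapa/Veh, whereas the main text of the study names LPS-treated cells for RNASeq, so whether LPS was given before sequencing is not settled. The labels describe cultures in which most, and not all, cells were CD11c+.

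Predicted and RIKEN symbols are mostly placeholders for transcripts without a known protein. Many of them are antisense RNAs, which are transcribed from the strand opposite to another gene and can share sequence with it as a reverse complement. Others start beside a coding gene and run away from it, a divergent or head-to-head arrangement, and others are pseudogenes, copies of coding genes that resemble their parents in sequence. For all of these, a read count depends on whether reads were assigned by strand and on whether a similar sequence exists elsewhere in the genome.

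The table holds only genes that the authors listed at a false discovery rate under 0.05, and per the supplement a minimum fold change, in their DESeq2 comparison of both conditions, so each of the 40 genes is there because of that comparison. The columns of fold change and p-value are the authors' own result and were not used, so no direction is given. The value described is the base mean, the mean of the read counts over all 6 libraries after each library was scaled by its size factor. It is 1 pooled value for each gene, with no value per library, no spread between replicates and no depth. Differences between base means are therefore descriptions without a test. In these bulk cultures, fewer cells of a type and less RNA per cell cannot be told apart, and the cell type cannot be checked in a table of this kind. Of 15 markers of dendritic cells, macrophages and neutrophils, 3 were listed, with base means of 37.2 for Cd86, 29.1 for Irf8 and 128.8 for Lyz2. How many genes the authors tested is not known here, so this count has no reference share.

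The 40 genes had base means from 8.00 (Gm28777) to 394.1 normalized counts (Gm26649), with a median of 41.6. The remaining 99 genes had a median of 29.1 and a range from 7.08 to 1742. The quartiles of the predicted and RIKEN genes were 14.3 and 66.9, against 15.1 and 59.7 in the remaining genes, so both groups covered much the same range below their highest values. A base mean under 20 was found for 15 of the 40 genes and for 38 of the 99, and a base mean of at least 100 for 6 and 17 genes. Together the 40 genes held 19.4% of the summed base mean of the table. Gm and Rik symbols did not stand apart, with medians of 42.5 and 33.8 normalized counts.

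**Figure D1:**
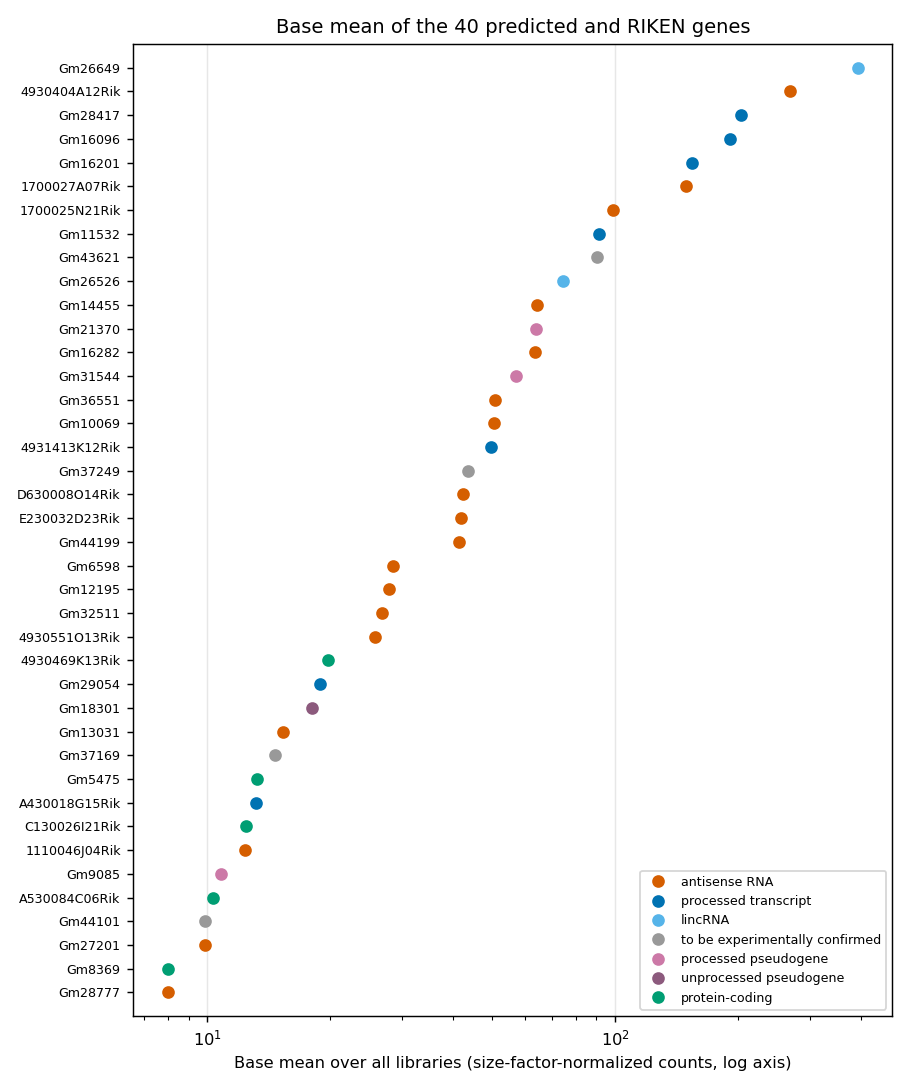
Base mean of each of the 40 predicted and RIKEN genes in size-factor-normalized counts on a log axis, 1 point per gene, coloured by annotated biotype. Gm26649 is highest at 394.1 and the 5 genes annotated as protein-coding all lie under 20.

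A longer transcript collects more reads, so levels of different genes were compared per kb of exon. The exons of the predicted and RIKEN genes were short, with a median summed length of 1705.5 bases (300 to 5986) against 4416 in the remaining genes. Exons summed to under 1000 bases in 14 of the 40 genes and in 5 of the 99. The base mean per kb had a median of 22.2 in the predicted and RIKEN genes and 7.59 in the remaining genes, and ran from 1.34 (Gm8369) to 370.0 (4930404A12Rik). Exon lengths were summed over all annotated isoforms, of which coding genes have more, and the isoforms used by these cells are not known. The order of the genes changed with length. Gm26649 was highest by base mean and eighth per kb, whereas 4930404A12Rik, 1700027A07Rik, Gm16096 and Gm36551 led per kb with 370.0, 325.3, 229.4 and 169.6.

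**Figure D2:**
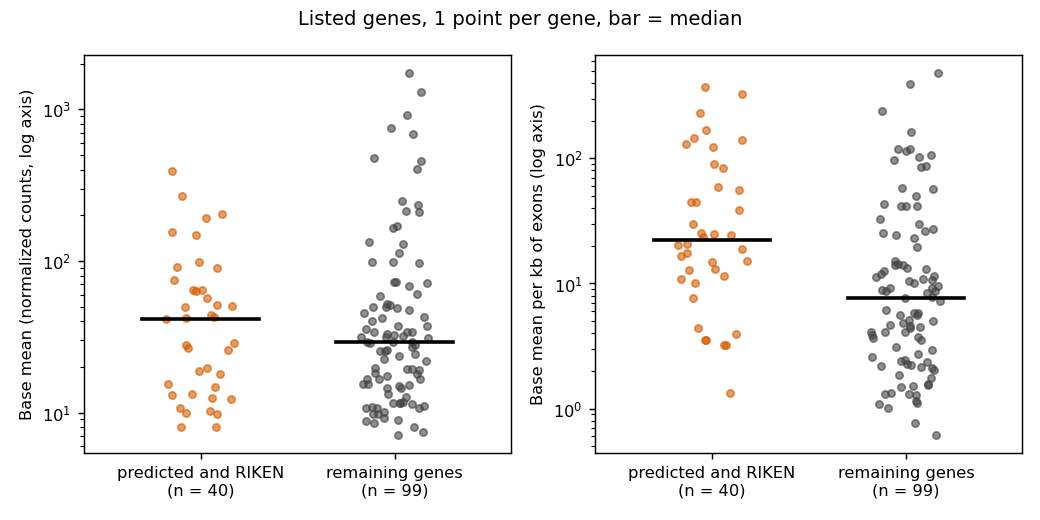
Base mean (left, normalized counts) and base mean per kb of exons (right), both on log axes, for the 40 predicted and RIKEN genes and the 99 remaining genes of the table, with 1 point per gene and a bar at the median. Medians are 41.6 and 29.1 on the left and 22.2 and 7.59 on the right.

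By annotation the 40 genes were 18 antisense RNAs, 7 processed transcripts (non-coding transcripts without an open reading frame), 4 entries of the class TEC (predicted from cDNA evidence and awaiting experimental proof), 2 lincRNAs, 4 pseudogenes and 5 protein-coding genes. Of the remaining 99 genes, 94 were protein-coding and 2 were antisense RNAs. Between the 2 largest classes, the 7 processed transcripts had the higher median, 91.6 normalized counts against 41.6 in the antisense RNAs. The 2 lincRNAs had 74.3 and 394.1. The 5 genes annotated as protein-coding, 4930469K13Rik, Gm5475, C130026I21Rik, A530084C06Rik and Gm8369, ran from 8.02 to 19.7 and were each below the median of the antisense RNAs. Within a class the spread was wide, from 8.00 to 269.0 among the antisense RNAs.

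The most abundant genes were traced to their positions on GRCm38. Gm26649 (ENSMUSG00000097272, a lincRNA on the plus strand of chromosome 1, 64029463 to 64032927) had 394.1 normalized counts. It lies inside Klf7, a gene for a Krüppel-like transcription factor on the minus strand, and all 3196 of its exon bases are opposite the 3′ UTR of Klf7. 4930404A12Rik (ENSMUSG00000106082, minus strand of chromosome 5, 124721997 to 124725079) had 269.0, and 663 of its 727 exon bases (91.2%) are opposite the 3′ UTR of Atp6v0a2, which encodes a subunit of the vacuolar proton pump. Both genes of largest base mean are thus mostly the reverse complement of a coding gene's 3′ end. Gm28417 (ENSMUSG00000100280, minus strand of chromosome 1, 34468834 to 34473148) had 203.5 and shares 492 bases with coding exons of the tyrosine phosphatase gene Ptpn18. Gm16096 (ENSMUSG00000087135, minus strand of chromosome 9, 40780742 to 40784181) had 191.3 and shares 463 bases, or 55.5% of its exons, with exons of the cell adhesion gene Clmp. These 4 genes differed in how much of them is shared, from 20.4% in Gm28417 to 100% in Gm26649.

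Gm16201 (ENSMUSG00000086742, plus strand of chromosome 7, 139950396 to 139978977) had 154.2 normalized counts over 9 exon blocks. It contains the coding gene 6430531B16Rik on the other strand and shares 991 bases, or 28.6% of its exons, with exons of that gene. Its last 46 bases are shared with Adam8, a metalloprotease gene. 1700027A07Rik (ENSMUSG00000084864, minus strand of chromosome 15, 78911966 to 78913660) had 149.0 and shares 86 bases with Sh3bp1, a protein-coding gene that it meets tail to tail. It also lies wholly inside the protein-coding gene Gm49510, without a shared exon base. Below these the levels dropped under 100. 1700025N21Rik (ENSMUSG00000090200, minus strand of chromosome 10, 83139150 to 83142038) had 98.9 and lies wholly opposite an intron of Chst11, a chondroitin sulfotransferase gene. Gm11532 (ENSMUSG00000087067, minus strand of chromosome 11, 97020508 to 97026248) had 91.6, and 3329 of its 5272 exon bases are opposite exons of the transcription factor gene Sp6. Gm43621 (ENSMUSG00000106933, minus strand of chromosome 2, 36248709 to 36250730) had 90.5 and lies inside Ptgs1, which encodes cyclooxygenase 1, an enzyme of prostaglandin synthesis. Of its bases, 148 are opposite coding sequence of Ptgs1 and the other 1874 are opposite introns. Gm26526 (ENSMUSG00000096980, minus strand of chromosome 7, 39588518 to 39591679) had 74.3 and is the only one of these 10 genes with no coding gene opposite.

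An overlapping gene on the opposite strand was annotated for 38 of the 40 predicted and RIKEN genes (95%), against 59 of the 99 remaining genes (59.6%). The gene opposite was protein-coding for 36 of the 40 (90%) and for 38 of the 99 (38.4%). Exons of a coding gene lay opposite exons of 27 of the 40 (67.5%) and of 34 of the 99 (34.3%). Of all 29748 annotated genes with such symbols, 28.6% were overlapped on the opposite strand, 20.6% by a coding gene and 8.94% by coding gene exons. Antisense RNAs are named for this position, and 93.7% of all annotated antisense RNAs with such symbols were overlapped, as were 18 of the 18 listed ones, so their overlap follows largely from their class. The other 22 listed genes were overlapped in 20 cases, whereas the share in all annotated genes with such symbols that are not antisense RNAs was 22.6%. Of the 25 genes at or above a base mean of 20, 25 were overlapped, and of the 15 below it, 13 were. The exceptions were Gm37169 (14.7) and Gm8369 (8.02). On the same strand the order was the other way, with 2 of the 40 genes (5%), 4930469K13Rik and C130026I21Rik, and 17 of the 99 (17.2%) overlapped. The annotation includes genes that dendritic cells do not express, and the genes that were tested but not listed are not known here, so these shares have no test.

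**Figure D3:**
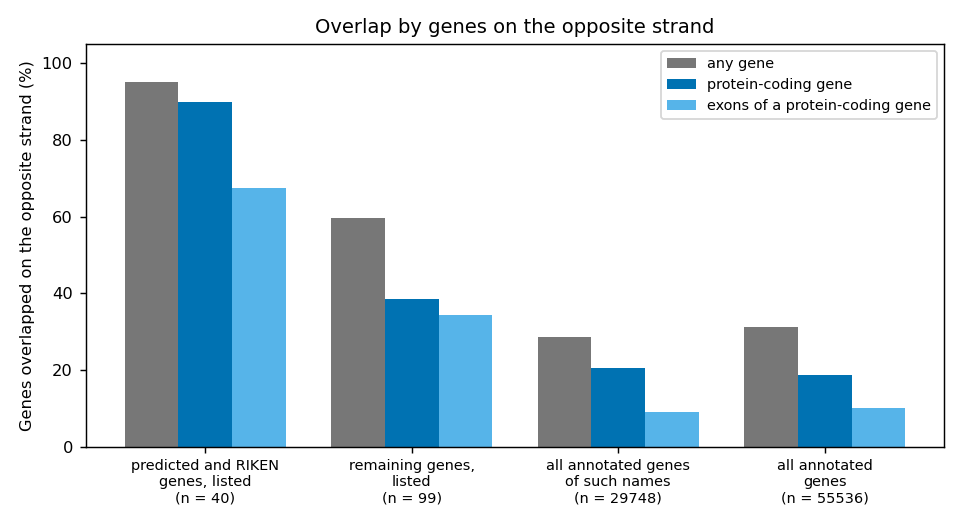
Percent of genes with an opposite-strand overlap by any gene, by a protein-coding gene and by exons of a protein-coding gene, in the 40 listed predicted and RIKEN genes, the 99 remaining listed genes, all annotated genes with such symbols and all annotated genes. The listed predicted and RIKEN genes stand at 95%, 90% and 67.5%, and all annotated genes with such symbols at 28.6%, 20.6% and 8.94%.

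The library kit is printed as NEB Next Ultra II-Dimensional, apparently the directional kit of that line, which marks the strand of the RNA. The strand option of the read counting is not stated in the sources used here. If strand was not used in the counting, reads over exon bases of both genes could be left uncounted as ambiguous. Reads of the coding gene over introns that face exons could then still enter the count of the gene opposite. If strand was used in the opposite sense, reads of the coding gene would enter that count. With counts pooled over libraries and no coverage, the part of such reads in these base means was not tested. The 40 genes lie opposite 41 different coding genes, of which Foxq1 and Tnfrsf23 were in the table. The number of genes tested by the authors is not known here, so this count has no reference share.

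The overlaps took several forms. A coding gene enclosed 21 of the 40 genes, 10 met a coding gene at both 3′ ends, and 6 met one at both 5′ ends. Coding sequence lay opposite exons of 20 genes, 3′ UTR opposite 12 and 5′ UTR opposite 10, with several in more than one class. In the median gene, 18.2% of the exon bases were opposite an exon, and in 7 genes at least 50% were. A further 9 genes overlap a coding gene without a shared exon base.

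**Figure D4:**
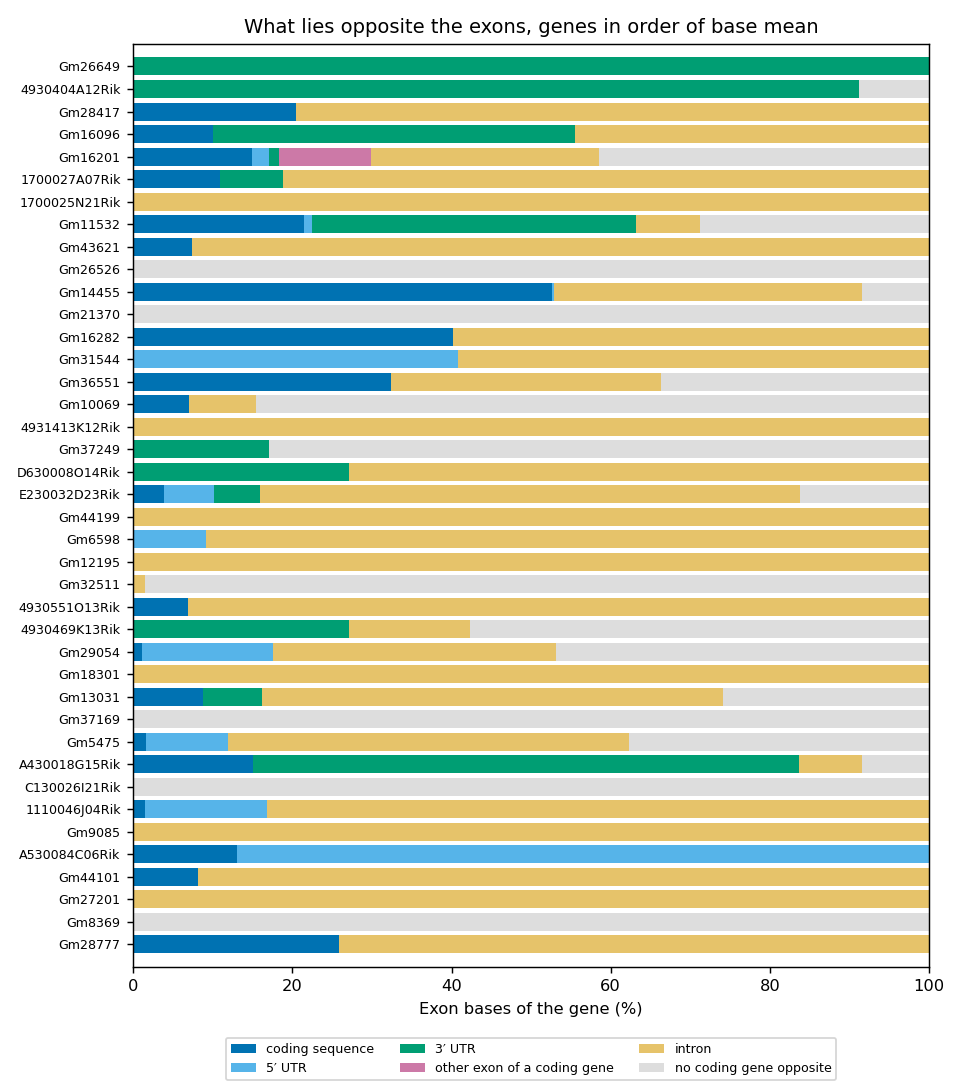
Percent of the exon bases of each of the 40 genes that lie opposite coding sequence, 5′ UTR, 3′ UTR, other exons or introns of a protein-coding gene, or opposite none, with genes ordered by base mean from the top. Gm26649 and 4930404A12Rik are opposite 3′ UTR for 100% and 91.2% of their exon bases. Gm26526, Gm21370, Gm37169 and Gm8369 have no coding gene opposite, and no exon base of C130026I21Rik lies opposite one.

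Several genes of lower level had exon bases opposite a 5′ UTR, taken over all annotated isoforms of the coding gene. Gm6598 and 1110046J04Rik lie inside the coding gene and do not reach its 5′ end. Their starts are 5984 and 67227 bases from that of the coding gene. Gm6598 (chromosome 5, 130220451 to 130223065) had 28.5 normalized counts and 238 bases opposite the 5′ UTR of Tmem248. Gm5475 (chromosome 15, 100422147 to 100428150), at 13.2, has 350 bases opposite the 5′ UTR and 52 opposite coding sequence of Slc11a2, an iron transporter gene. 1110046J04Rik (chromosome 13, 33935567 to 33960181), at 12.4, lies inside the protease inhibitor gene Serpinb6a with 531 bases opposite its 5′ UTR. Gm29054 (chromosome 9, 83145915 to 83147364), at 18.9, has 240 bases opposite the 5′ UTR and 15 opposite coding sequence of Hmgn3, a gene for a nucleosome-binding protein. These 4 genes had between 9.10% (Gm6598) and 17.6% (Gm29054) of their exon bases opposite exons of the coding gene, so most of each was not shared with an mRNA. Of the 10 genes with bases opposite a 5′ UTR, A530084C06Rik (87.0%) and Gm31544 (40.8%), described below, had the largest shares.

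Another group had exon bases opposite a 3′ UTR of a coding gene. Gm37249 (chromosome 9, 99307583 to 99310451) had 43.7 normalized counts, with 489 of 2869 bases opposite the 3′ UTR of Esyt3, a gene for a tether between membranes. D630008O14Rik (chromosome 1, 106541943 to 106575045) had 42.4 and 558 bases opposite the 3′ UTR of Bcl2, an inhibitor of apoptosis. The first meets the coding gene tail to tail and the second lies wholly inside it. 4930469K13Rik (chromosome 11, 33973961 to 34098554), annotated as coding, had 19.7 and contains Lcp2, an adaptor of immune receptor signaling, with 282 bases opposite its 3′ UTR. A430018G15Rik (chromosome 2, 52425012 to 52434885) had 13.1 and 1175 of 1713 bases opposite the 3′ UTR of Cacnb4, a calcium channel subunit gene. Gm13031 (chromosome 4, 140947666 to 140957902) had 15.3, with 81 bases opposite coding sequence and 68 opposite the 3′ UTR of Padi2, a peptidylarginine deiminase gene. The share of exon bases opposite exons in this group ran from 16.1% in Gm13031 to 83.7% in A430018G15Rik.

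Coding sequence, with little or no UTR, lay opposite a further group. Gm14455 (chromosome 2, 172425804 to 172440560) had 64.5 normalized counts and 1130 of 2146 bases opposite coding sequence of Cass4, a scaffold gene of cell adhesion, besides 5 bases at the start of Rtf2. Gm16282 (chromosome 7, 29138440 to 29140312) had 63.5 normalized counts and 181 of 451 bases opposite coding sequence of Rasgrp4, an activator of Ras in myeloid cells. Gm36551 (chromosome 5, 137857045 to 137860318) had 50.9 and 97 of 300 bases opposite coding sequence of Pilrb1, an immunoglobulin-like receptor gene. Gm10069 (chromosome 6, 128438757 to 128503281) had 50.4 and 303 of 4370 bases opposite coding sequence of the proteinase inhibitor gene Pzp, besides 534 opposite the processed pseudogene Gm8719. Per kb these genes differed more than by base mean, with 30.1 for Gm14455, 140.8 for Gm16282, 169.6 for Gm36551 and 11.5 for Gm10069. 4930551O13Rik (chromosome 2, 5037280 to 5041133) had 25.8 and 73 bases opposite Optn, an autophagy receptor gene. Gm44101 (chromosome 6, 108470355 to 108472575) had 9.86 and 181 bases opposite Itpr1, a calcium channel gene of the endoplasmic reticulum. Gm28777 (chromosome 1, 53196113 to 53197695) had 8.00 and 138 of 535 bases opposite the mismatch repair gene Pms1. The last 3 genes each lie wholly inside the coding gene.

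Of the genes that overlap a coding gene without a shared exon base, 4931413K12Rik had 49.6 normalized counts opposite Pitpna, which encodes a phospholipid transfer protein, Gm44199 had 41.4 opposite Brk1, a subunit of an actin regulator, and Gm12195 had 27.9 opposite Tbc1d9b. Gm32511 (26.8) begins inside the aquaporin gene Aqp9 and leaves it, with 98.5% of its exon bases beyond any coding gene. Gm27201 (9.86) lies inside Fli1, an ETS transcription factor gene of blood cells. The pseudogene Gm9085 (10.1 normalized counts per kb) lies in an intron of Rp2 on the X chromosome. Besides these 6 genes and 1700025N21Rik, C130026I21Rik belongs here, since none of its exons reaches Gm10553, the coding gene it contains.

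A start near that of a coding gene on the other strand, within 1000 bases, was annotated for 7 of the 40 genes (17.5%), against 10 of the 99 remaining genes (10.1%) and 5.56% of all annotated genes with such symbols. Antisense RNAs made up 5 of the 7, or 27.8% of the 18 listed, against 21.1% of all annotated antisense RNAs with such symbols. The other 2 were 9.09% of the 22 listed genes of other classes, against 4.12% of the annotated ones. In order of distance these were Gm14455 with Rtf2 (4 bases), 4930404A12Rik with Dnah10 (6), Gm10069 with Fkbp4 (80), A430018G15Rik with Arl5a (111), 1700027A07Rik with Pdxp (259), E230032D23Rik with Tnfrsf26 (698) and Gm29054 with Hmgn3 (770). The first of these pairs overlaps by 5 bases, the next 4 do not overlap, and the last 2 overlap by 699 and 771 bases. Rtf2 encodes a replication termination factor, Dnah10 a dynein heavy chain, Fkbp4 an immunophilin, Arl5a a small GTPase of the Golgi, and Pdxp a phosphatase of pyridoxal phosphate. None of these 7 coding genes was in the table, a count that again has no reference share. The genes facing them had base means of 64.5 (Gm14455), 269.0 (4930404A12Rik), 50.4 (Gm10069), 13.1 (A430018G15Rik), 149.0 (1700027A07Rik), 41.9 (E230032D23Rik) and 18.9 (Gm29054).

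**Figure D5:**
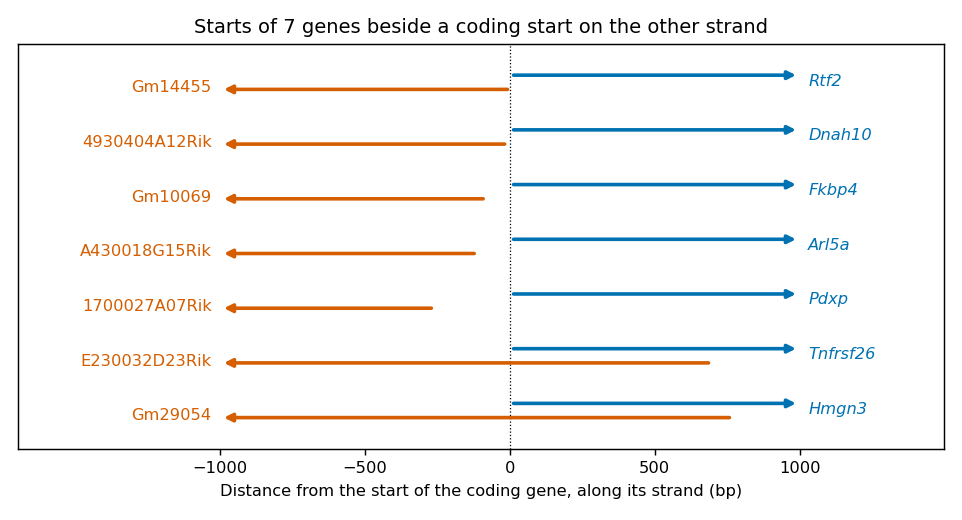
Position of the start of 7 genes (orange, running left) relative to the start of the nearby coding gene on the other strand (blue, running right), in bp along the coding strand, with arrows cut at 1000 bp. The starts of 5 pairs lie within 259 bp without passing each other by more than 5 bp, and E230032D23Rik and Gm29054 begin 698 and 770 bp inside the coding gene.

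The region before the coding start holds or adjoins both annotated starts of such a pair, so it is shown for the 5 pairs that have a promoter window in RefSeq (GRCm38.p6). Each sequence is read 5′ to 3′ on the strand of the coding gene and ends at the base before its annotated 5′ UTR. Capitals mark bases that belong to the first exon of the predicted or RIKEN gene, which is transcribed from the other strand. The regions are chr2:172440328-172440555 (plus strand) for Gm14455 and Rtf2, chr5:124724835-124725084 (plus) for 4930404A12Rik and Dnah10, chr6:128438678-128438906 (minus) for Gm10069 and Fkbp4, chr2:52424902-52425124 (minus) for A430018G15Rik and Arl5a, and chr15:78913669-78913918 (plus) for 1700027A07Rik and Pdxp.
Gm14455 and Rtf2: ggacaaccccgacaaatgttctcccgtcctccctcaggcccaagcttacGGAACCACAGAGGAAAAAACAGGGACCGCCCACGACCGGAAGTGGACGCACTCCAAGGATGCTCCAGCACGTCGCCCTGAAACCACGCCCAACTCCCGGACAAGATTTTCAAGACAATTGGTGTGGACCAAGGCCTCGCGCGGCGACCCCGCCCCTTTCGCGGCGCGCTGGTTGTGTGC
4930404A12Rik and Dnah10: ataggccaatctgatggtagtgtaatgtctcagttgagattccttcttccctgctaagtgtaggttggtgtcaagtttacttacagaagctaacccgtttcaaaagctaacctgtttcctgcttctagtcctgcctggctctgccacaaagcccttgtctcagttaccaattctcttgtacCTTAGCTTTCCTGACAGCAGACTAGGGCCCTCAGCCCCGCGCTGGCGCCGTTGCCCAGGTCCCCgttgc
Gm10069 and Fkbp4: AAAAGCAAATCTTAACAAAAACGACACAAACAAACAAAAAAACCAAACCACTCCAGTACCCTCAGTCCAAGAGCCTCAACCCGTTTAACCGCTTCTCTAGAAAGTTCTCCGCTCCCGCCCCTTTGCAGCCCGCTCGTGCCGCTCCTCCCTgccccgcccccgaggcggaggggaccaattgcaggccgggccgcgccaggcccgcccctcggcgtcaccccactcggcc
A430018G15Rik and Arl5a: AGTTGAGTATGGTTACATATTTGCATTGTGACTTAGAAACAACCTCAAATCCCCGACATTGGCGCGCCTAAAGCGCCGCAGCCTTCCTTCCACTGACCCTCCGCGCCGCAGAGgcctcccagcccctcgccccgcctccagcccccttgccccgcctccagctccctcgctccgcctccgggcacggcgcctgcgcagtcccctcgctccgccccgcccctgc
1700027A07Rik and Pdxp: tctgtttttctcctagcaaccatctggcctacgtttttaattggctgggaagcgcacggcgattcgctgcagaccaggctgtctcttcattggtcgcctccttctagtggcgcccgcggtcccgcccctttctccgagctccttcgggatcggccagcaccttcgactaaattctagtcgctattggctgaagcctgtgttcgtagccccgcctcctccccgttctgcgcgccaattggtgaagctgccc

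First exons of the predicted or RIKEN gene took up 179 of 228 bases in the Rtf2 region, 64 of 250 at Dnah10, 150 of 229 at Fkbp4 and 113 of 223 at Arl5a. The Pdxp region has no capitals because 1700027A07Rik starts just beyond it. The full windows, from 250 bases before to 50 bases after the RefSeq start, held 28 CpG dinucleotides at Rtf2, 12 at Dnah10, 33 at Fkbp4, 31 at Arl5a and 29 at Pdxp, against a median of 7 in all 32851 windows. The letters GGGCGG (a GC box) were found on either strand in the printed regions of Rtf2, Fkbp4, Arl5a and Pdxp and in 35.7% of all windows. The letters CCAAT were found on either strand in all 5 printed regions and in 37.4% of all windows, and TATAAA in none of the 5 and in 13.6% of all windows. The printed regions are shorter than the windows, and each motif was searched on its own, so overlapping matches of different motifs would both be kept. A match of letters is a description and not a binding site.

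Pairs in which both strands were listed could be set side by side. A530084C06Rik (chromosome 13, 31556134 to 31559333, minus strand), annotated as coding, lies wholly opposite the single exon of the forkhead transcription factor gene Foxq1 (31556134 to 31560976), with 3200 of 3200 bases shared. Their base means were 10.3 and 13.2 normalized counts. E230032D23Rik (chromosome 7, 143628024 to 143670614) had 41.9 and runs across Tnfrsf26, Tnfrsf22 and Tnfrsf23, genes of the TNF receptor family. It shares 164 bases with exons of Tnfrsf23, which had 11.6, and 107 with Tnfrsf26, which was not in the table. Rasgrp4 itself was not in the table, but it lies opposite both Gm16282 (63.5) and Fam98c (234.6). Gm16282 and Fam98c are on the same strand, 12197 bases apart.

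Near-identical sequence elsewhere was searched because a read that matches 2 places cannot be assigned with certainty. Transcripts of the 40 genes were compared with all annotated transcripts, and matches of at least 95% identity over at least 67 bases, the length of a trimmed read, were kept if they lay outside the gene's own locus. For 29 genes there was none and for 11 there was at least 1, over at least 50% of a transcript in 5 genes. Gm26526 is the longest case. The match covers 100% of its transcript and runs over 2938 bases at 99.1% identity to the reverse strand of Ube2h, a ubiquitin-conjugating enzyme gene. Of its exon bases, 552 are also opposite Gm2058, a processed pseudogene. Gm26526 is thus annotated as a lincRNA and is close to the reverse complement of an annotated Ube2h transcript. Whether reads of Ube2h entered its count was not tested.

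The processed pseudogenes Gm31544 (chromosome 13, 120046573 to 120047013, plus strand) and Gm21370 (120015264 to 120015972, minus strand) lie 30600 bases apart and resemble each other at 96.1% over 441 bases. Both also match Ctdsp1, a phosphatase gene, Gm31544 at 99.0% over 408 bases and Gm21370 at 98.6% over 147 bases. Their base means were 57.3 and 63.8 normalized counts. These values are uncertain, because reads could have been split between the 2 pseudogenes and Ctdsp1. On the other strand, 180 bases of Gm31544 are opposite the 5′ UTR of Gm21188, and Gm21370 has the lincRNA Gm36161 opposite.

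C130026I21Rik (chromosome 1, 84992690 to 85270566) had 12.4 normalized counts and matches Sp140, a nuclear body gene, at 96.0% over 979 bases, with a match over 100% of a transcript. Gm36551 matches 5 other genes over 97.7% of a transcript. Gm10069 matches the reverse strand of Ppih, a cyclophilin gene of the spliceosome, at 96.2% over 682 bases. Shorter matches were spread over many genes in Gm37169 (180 genes, 9.44% of the transcript) and Gm28417 (32 genes, 23.7%). The matches of Gm44199, 1110046J04Rik and Gm13031 covered from 7.90% (Gm13031) to 27.1% (Gm44199) of a transcript. The levels of Gm26526, Gm31544, Gm21370, C130026I21Rik and Gm36551 therefore carry an uncertainty of assignment from these matches. For the 29 genes without a match, copies outside annotated transcripts or below the limits of the search were not sought. Among the 10 genes of largest base mean, 8 were without a match, the exceptions being Gm28417 and Gm26526.

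Gm8369 (chromosome 19, 11485938 to 11512577) is annotated as coding. It had no overlapping gene on either strand and no match in this search, and it had the lowest level per kb of the 40 genes, 1.34. Gm37169 (chromosome 2, 32487988 to 32492148), the other gene with nothing opposite, is the one with matches in 180 genes.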

How the data were processed

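Poly(A) RNASeq of Veh-DC and Rapa-M-DC (3 libraries each) was available as 1 table of 139 genes. Per the supplement, the authors trimmed and quality-filtered paired-end reads, used bowtie2 for alignment to a build printed as mm38 (read here as GRCm38), obtained gene counts by htseq-count, and used DESeq2 for the comparison. The aligner does not split reads across introns. Versions, annotation and strand option are not given in the sources used here. The authors deposited the base mean, treated here as a signal: size-factor-normalized counts averaged over the 6 libraries. The table's other columns (log2 fold change, its standard error, the statistic, p and adjusted p) hold the authors' own comparison and were not used. Depth per library is unknown.

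Members were chosen by symbol, and the members and lists were chosen with earlier results of these data known. Positions came from GENCODE M21 (GRCm38), which holds 55536 genes and lacked 0 of the 139 identifiers. Overlaps, start distances and exon lengths were computed with Python 3.11.15 and numpy 2.4.6, and the overlap code was tested on simulated data (400 genes, 0 mismatches to base-by-base counting). Promoter windows came from RefSeq, in which 11 of the 40 symbols had one, so the windows of the facing coding genes were used. Copies were sought with blastn 2.17.0 (megablast), and plots were drawn with matplotlib 3.10.9. The genes were named (1 of the 40 and its position are not reported here), with position in full for the 10 largest base means and for those whose exons share bases with opposite coding exons. Sequences were to be shown for up to 6 of the genes that face a coding start, by base mean. E230032D23Rik and Gm29054 had no window for their coding gene, and A430018G15Rik was taken in their place. With 1 pooled value per gene, no test was made. The design foresaw one on counts of each library.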

Additional observations from a re-analysis of the deposited data

How the results depend on the processing

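Of 11 alternatives, 7 left the value within its limits. The limits were a factor of 1.5 for a median or count and the 95% exact binomial interval for a share. The predicted and RIKEN genes are a fixed list and not a random sample of genes. The interval served only as a cutoff for the size of a change and measures no spread. The median base mean of 41.6 became 63.5 with only genes of at least 20 normalized counts, by construction. The share overlapped on the opposite strand (95%) was 80% for exons against exons and 100% for genes at or above 20 normalized counts. The share with a coding start nearby (17.5% within 1000 bases) was 35% within 5000 bases. No paired analysis was possible because the table holds no value of a single library, and for the same reason no library could be left out. Depth is unknown, so the precision of each base mean could not be given.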
